A study of Mus musculus with 8 samples.

Results

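Prostaglandin E2 is made, cleared and sensed by a small group of proteins, and 10 of the genes that encode them were followed in cachectic C26 (cxC26) tumors with and without a working Il6 gene. The genes were chosen by name for their known roles, with earlier results of these data in view: Pla2g4a, which releases arachidonic acid, the cyclooxygenases Ptgs1 and Ptgs2, the prostaglandin E synthases Ptges and Ptges2, the degrading enzyme Hpgd, and the receptors Ptger1, Ptger2, Ptger3 and Ptger4. They are 10 of the 27179 genes in the table, and 9 of them were high enough to be tested. C26 is a mouse colon carcinoma line, and tumors of its cachectic form cxC26 waste the host. RNA-seq of bulk tumor was available from 4 cxC26 scr tumors, grown from cells given a scrambled guide RNA and called wild-type, and from 4 cxC26 IL6KOs1 tumors, grown from IL-6 knockout subclone 1 and called cxC26 IL-6 KO s1 here.

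All 8 mice were CD2F1 males with an intact immune system, implanted under the skin, and the study's mice were 13 to 18 weeks old when used. Tumors were taken once a mouse had lost more than 15% of its body weight. The knockout cells had been made with CRISPR/Cas9 from a lentiviral vector under puromycin selection and are a single clone, so that clone and knockout cannot be told apart. Host cells in either kind of tumor still carried Il6. For its flow cytometry, tumor growth curves and circulating cytokines in CD2F1 mice, the study implanted more knockout s1 than control cells. In the terminal phase of the flow cytometry the knockout tumors were collected later. For the sequenced tumors the cell number and the day are not given in the sources used here. A difference in age or inoculum cannot be told apart from the genotype. Nothing else in the labels separates the 8 tumors.

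Il6 itself had 356, 326, 376 and 438 reads in scr replicates 1 to 4 and 64, 56, 86 and 59 reads in the IL-6 KO s1 replicates, a log2 fold change of -2.45 (adjusted p = 1.76e-06 by limma with Benjamini-Hochberg adjustment over all tested genes). The knockout tumors thus sat below every control tumor, with reads remaining in all 4. Total reads per tumor ran from 14158989 to 17048062. Of the epithelial markers, Krt20 carried 17390 to 22185 reads in each tumor, whereas Epcam had 0 to 14 and Krt19 0 to 1. Krt18 had 21 to 30 reads in scr tumors and 140 to 282 in IL-6 KO s1 tumors. Cdh1 had 17 to 37 against 45 to 87, and Krt8 had 3 to 6 against 9 to 15. The label colon carcinoma thus rests here mainly on Krt20. Epcam and Krt19 were at or near 0 in both groups, and Krt18, Cdh1 and Krt8 were low but higher in the knockout tumors.

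In the pathway, cytosolic phospholipase A2 frees arachidonic acid from membranes and a cyclooxygenase converts it to prostaglandin H2. Prostaglandin E synthases turn that intermediate into prostaglandin E2, and the dehydrogenase encoded by Hpgd inactivates the product after it is taken up into cells. Of the 4 receptors, EP2 (Ptger2) and EP4 (Ptger4) raise cyclic AMP, EP3 (Ptger3) mostly lowers it and EP1 (Ptger1) acts mainly through calcium. In tumors prostaglandin E2 is known for restraining immune cells, and in cachexia for its place among inflammatory mediators.

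The sequences just upstream of 4 members are shown because these are the steps described in most detail below: the cyclooxygenase with the highest level, and the synthase, the degrading enzyme and the receptor that passed the test. They come from RefSeq promoter windows on GRCm38.p6, which hold 250 bases before and 50 after the annotated start, and are written 5′ to 3′ on the gene's strand and end at the last base before the start. Capitals mark matches to a motif on either strand.
Ptgs2, chr1:150099931-150100030, plus strand: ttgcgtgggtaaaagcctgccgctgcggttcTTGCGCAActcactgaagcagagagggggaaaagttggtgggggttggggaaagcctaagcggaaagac
Ptges, chr2:30903298-30903397, minus strand: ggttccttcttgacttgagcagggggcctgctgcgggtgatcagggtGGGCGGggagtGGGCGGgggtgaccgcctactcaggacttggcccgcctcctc
Hpgd, chr8:56294452-56294551, plus strand: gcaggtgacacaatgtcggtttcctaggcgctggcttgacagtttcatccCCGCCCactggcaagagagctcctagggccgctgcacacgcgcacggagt
Ptger4, chr15:5244188-5244347, minus strand: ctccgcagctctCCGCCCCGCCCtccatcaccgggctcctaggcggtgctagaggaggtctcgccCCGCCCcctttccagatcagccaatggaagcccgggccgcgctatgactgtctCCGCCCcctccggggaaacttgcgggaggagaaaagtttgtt
The start used for Ptges lies inside the longer RefSeq span of the gene, which runs from 30889471 to 30931020 on chromosome 2.

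Both strands of each window were searched for 9 motifs. In the Ptgs2 window the capitals mark a C/EBP match (TTGCNNAA) 69 to 62 bases before the start, a motif held by 10.8% of all 32851 promoters. Outside the stretch shown, Ptgs2 also had a GC box (GGGCGG) at 170 bases before the start and, at 14 to 18 bases after it, a cAMP response element half-site (TGACG, in 20.8% of promoters) that overlapped an E-box (CACGTG, 7.15%). The capitals in Ptges, Hpgd and Ptger4 are GC boxes, which 35.7% of promoters hold. Ptges had 2, beginning 53 and 42 bases before the start, Hpgd had 1 at 50 bases before it, and Ptger4 had 4, the first 2 of which share a base.

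No member's window held the full cAMP response element (TGACGTCA, 1.79% of promoters), the AP-1 motif (TGANTCA, 7.81%), the STAT motif (TTCNNNGAA, 8.30%) or the NF-kB motif (8.46%). That says only that these letters are not in these windows. The TATA box letters (TATAAA, 13.6%) were in the Hpgd window, 5 to 10 bases after the start, and in 1 of the 2 Pla2g4a windows. Of the others, Ptges2 had an E-box, Ptger2 a C/EBP match and Ptger3 GC boxes only, and 2 of the 10 member windows had none of the motifs. Ptger1 was not matched.

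Between the 2 groups, 3 of the 9 tested members rose in cxC26 IL-6 KO s1 tumors (Hpgd, Ptger4 and Pla2g4a), 1 fell (Ptges) and 5 did not pass the test. Of all 13262 tested genes, 39.8% passed in either direction, 19.1% higher and 20.7% lower, so that the count of 4 of 9 is close to the background and is no result about these genes as a group. Likewise 4 of the 9 had groups that did not overlap, against 37.1% of all tested genes. The 9 members had a median log2 fold change of 0.13, beside 0.00 for all genes in the fit, whose median size of change was 0.30. What the data do show is which steps moved and in which tumors.

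**Figure D1:**
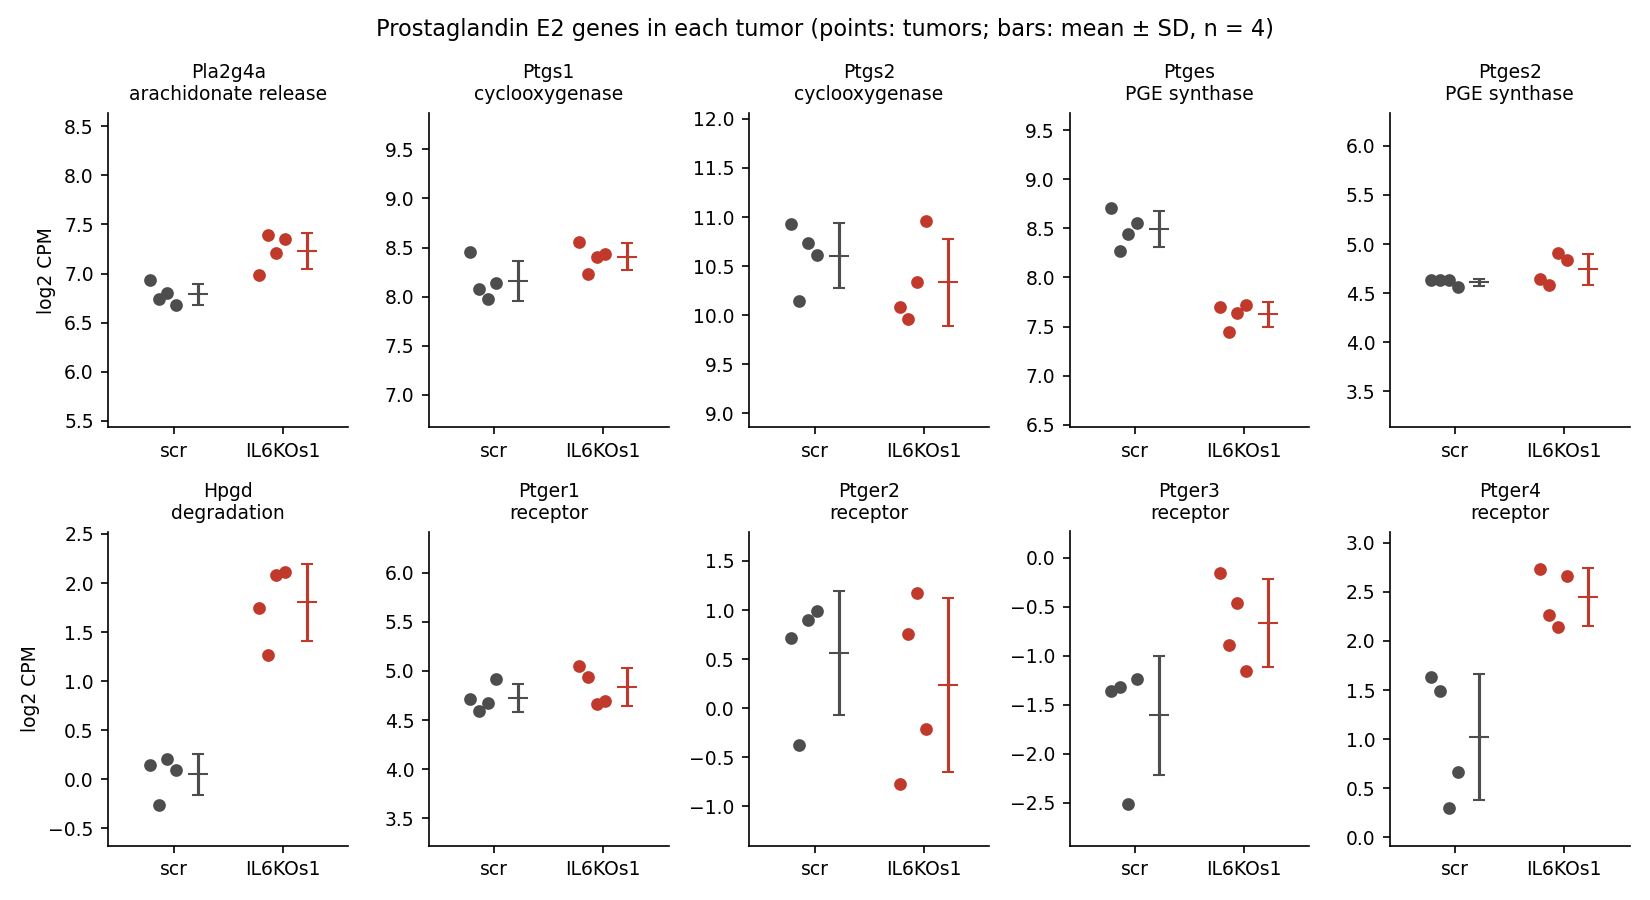
Log2 CPM of the 10 genes in each of the 4 scr (grey) and 4 IL6KOs1 (red) tumors, with the group mean ± SD beside the points; every panel spans the same number of log2 units around its own centre. Hpgd, Ptger4 and Pla2g4a lie wholly higher in the IL6KOs1 tumors and Ptges wholly lower, while Ptgs2 and Ptger2 scatter across both groups.

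Levels between genes can be compared only per length, and reads were therefore divided by the length of all annotated exons of the gene and given as CPM per kb. In scr tumors the order ran Ptgs2 (347 ± 75.0, SD, n = 4), Ptges (92.2 ± 11.7), Ptgs1 (74.3, range 64.8 to 90.2) and Pla2g4a (17.3 ± 1.30). Then came Ptger1 (4.86 ± 0.482) and Ptges2 (4.84 ± 0.114), followed by Hpgd (0.620 ± 0.0857), Ptger4 (0.328 ± 0.136), Ptger2 (0.302 ± 0.105) and Ptger3 (0.0611 ± 0.0203). The enzymes that make prostaglandin E2 thus stood far above Hpgd and above 3 of the 4 receptors.

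Some neighbours in that order were not separated by their spread. In scr tumors Ptges (78.8 to 106 CPM per kb) overlapped Ptgs1 (64.8 to 90.2), Ptger1 (4.42 to 5.54) overlapped Ptges2 (4.67 to 4.90), and Ptger4 (0.185 to 0.464) overlapped Ptger2 (0.149 to 0.382). In IL-6 KO s1 tumors 2 of these pairs came apart. There, Ptgs1 (77.0 to 97.5 CPM per kb) stood above Ptges (44.3 to 53.5), and Ptger4 (0.663 to 0.995) stood above Ptger2 (0.113 to 0.434). Ptgs2 kept the first place, at 293 ± 99.1 CPM per kb, and Ptger3 had the lowest mean, at 0.115 ± 0.0348. Ptger3 (0.0789 to 0.157) overlapped Ptger2 in these tumors and was above it in replicate 1.

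Pla2g4a, the calcium-dependent phospholipase that supplies arachidonic acid to the cyclooxygenases, rose. The gene (Entrez 18783) lies on the minus strand of mm10 chr1:149829618-149961290. It had 2035, 1731, 1587 and 1579 reads in scr replicates 1 to 4 and 2047, 2321, 2338 and 2370 in IL-6 KO s1 replicates 1 to 4. On the log2 CPM scale these were 6.93, 6.74, 6.80 and 6.68 against 6.98, 7.39, 7.21 and 7.35. IL-6 KO s1 replicate 1 sat only just above scr replicate 1, and the other 3 knockout tumors were clear of the controls. Pla2g4a thus differed by a log2 fold change of 0.44 (SE 0.102, 95% confidence interval 0.22 to 0.67, adjusted p = 0.00504), or 1.36-fold.

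Pla2g4a and Ptgs2 are neighbours on chromosome 1, with 139 kb between them. The 758 tested genes of that chromosome had a median log2 fold change of -0.34 and the 30 within 5 Mb of Pla2g4a one of -0.30, so that Pla2g4a was higher where its surroundings were lower. Relative to the chromosome median its difference was 0.78, and that of Ptgs2, described next, was 0.07. The part of that regional shift in either gene was not tested.

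Neither cyclooxygenase gene passed the test. Ptgs1, the constitutive enzyme also known as COX-1 (Entrez 19224, chr2:36216742-36258593, plus strand), measured 8.45, 8.08, 7.98 and 8.14 log2 CPM in scr tumors and 8.56, 8.23, 8.40 and 8.43 in IL-6 KO s1 tumors. Only scr replicate 1 reached into the knockout range. Its log2 fold change was 0.24 (SE 0.112, adjusted p = 0.108; two-sided exact permutation p = 0.114, n = 4 per group), and the lower bound of its 95% confidence interval lay just below 0 and the upper at 0.49. Without scr replicate 1 the difference was 0.34 with an adjusted p of 0.0171 by limma, so that this 1 tumor decided the call.

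Ptgs2, the inducible enzyme COX-2 (Entrez 19225, chr1:150100031-150108234, plus strand), had 32539, 18343, 24358 and 24086 reads in scr tumors and 17560, 13794, 20415 and 28915 in IL-6 KO s1 tumors. Its log2 CPM values of 10.93, 10.15, 10.74 and 10.61 stood against 10.08, 9.96, 10.34 and 10.96. The highest tumor of all was a knockout tumor, replicate 4, and the lowest was another, replicate 2, so the groups overlapped over most of their range. The log2 fold change was -0.27 (SE 0.22, 95% confidence interval -0.75 to 0.21, adjusted p = 0.347; two-sided exact permutation p = 0.371, n = 4 per group). At 13794 to 32539 reads the counting error is small, and the tumors differed by far more than that. Relative to the median of its chromosome the difference turned from -0.27 to 0.07. The estimate ran from -0.48 without IL-6 KO s1 replicate 4 to -0.15 without replicate 2.

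Of the prostaglandin E synthases, Ptges, which encodes the inducible microsomal enzyme usually paired with COX-2, fell, and Ptges2, a second membrane-associated synthase, did not pass. Ptges (Entrez 64292, chr2:30889471-30931020, minus strand) had 6983, 5010, 4943 and 5753 reads in scr tumors and 3367, 2411, 3151 and 3047 in IL-6 KO s1 tumors. Its log2 CPM values were 8.71, 8.27, 8.44 and 8.55 against 7.70, 7.44, 7.64 and 7.72. Every knockout tumor lay below every control tumor, with a gap wider than the whole range of the knockout group. The log2 fold change was -0.87 (SE 0.104, 95% confidence interval -1.10 to -0.64, adjusted p = 9.75e-05), which left 54.8% of the control level. It stayed between -0.94 and -0.80 when any 1 tumor was left out.

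Ptges2 (Entrez 96979, chr2:32395890-32402740, plus strand) measured 4.63, 4.63, 4.63 and 4.56 log2 CPM in scr tumors and 4.64, 4.58, 4.91 and 4.84 in IL-6 KO s1 tumors. For Ptges2 the log2 fold change was 0.13 (SE 0.104, 95% confidence interval -0.10 to 0.36, adjusted p = 0.343; two-sided exact permutation p = 0.2, n = 4 per group). Knockout replicates 3 and 4 were above the controls, and replicates 1 and 2 were within or beside their range.

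**Figure D2:**
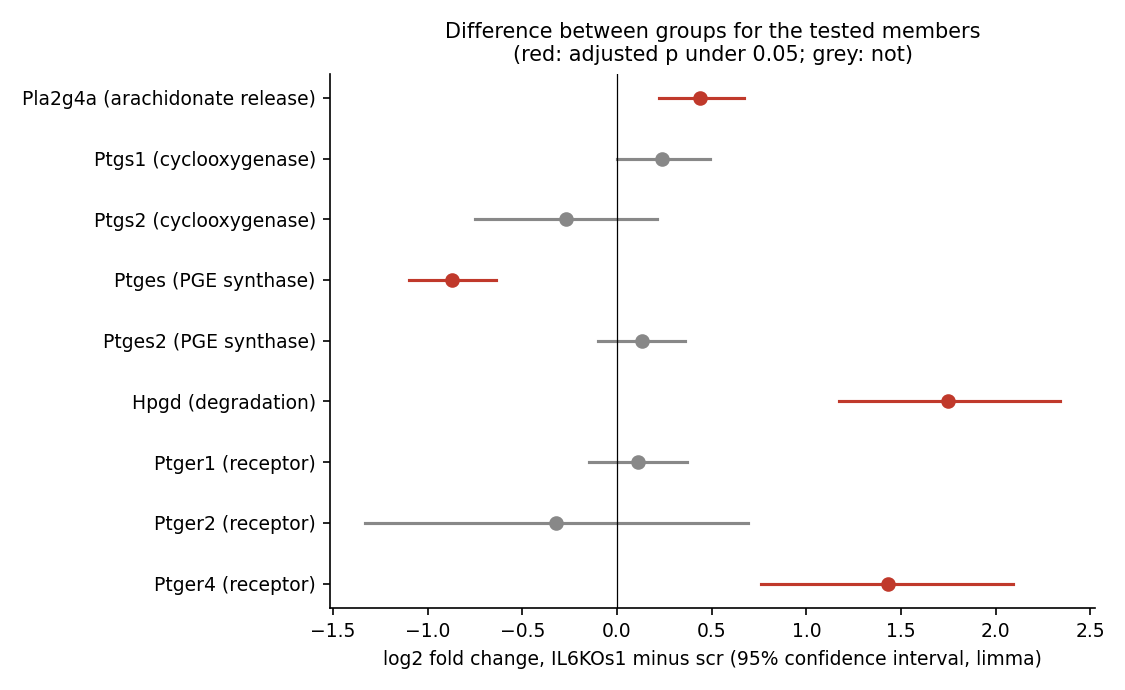
Log2 fold change (IL6KOs1 minus scr) of the 9 tested members with its 95% confidence interval from limma; red marks an adjusted p under 0.05. Hpgd (1.75), Ptger4 (1.43) and Pla2g4a (0.44) lie to the right of 0 and Ptges (-0.87) to the left, and the widest interval is that of Ptger2, a gene of few reads.

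Hpgd, the 15-hydroxyprostaglandin dehydrogenase that inactivates prostaglandin E2, rose more than any other tested member. The gene (Entrez 15446, chr8:56294552-56321046, plus strand) had only 18, 13, 16 and 16 reads in scr tumors and 54, 33, 66 and 62 in IL-6 KO s1 tumors. These gave 0.15, -0.26, 0.21 and 0.10 log2 CPM against 1.75, 1.27, 2.08 and 2.11. The lowest knockout tumor, replicate 2, was about 1 log2 unit above the highest control. Hpgd had a log2 fold change of 1.75 (SE 0.267, 95% confidence interval 1.17 to 2.34, adjusted p = 0.000443), or 3.37-fold, and ranged from 1.65 to 1.93 when 1 tumor was left out. At its higher level Hpgd still reached only 2.12 ± 0.526 CPM per kb.

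Because Ptges and Hpgd act on the making and the removal of the same product, their difference in log2 CPM was also taken within each tumor. This comparison was chosen after the values were seen and has no test. Ptges exceeded Hpgd by 8.56, 8.54, 8.23 and 8.45 log2 units in scr tumors and by 5.95, 6.17, 5.57 and 5.61 in IL-6 KO s1 tumors. The means were 8.44 ± 0.15 and 5.82 ± 0.29 (SD, n = 4 each), a difference of -2.62, with a wide gap between the groups. That gap follows from the fall of Ptges and the rise of Hpgd given above and is no separate result. Within a tumor Ptges stood 3.88 ± 0.19 above Ptges2 in controls and 2.88 ± 0.13 in knockouts, again without overlap. For Ptgs2 over Ptgs1 the values were 2.45 ± 0.29 and 1.93 ± 0.44, and the groups overlapped through IL-6 KO s1 replicate 4.

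**Figure D3:**
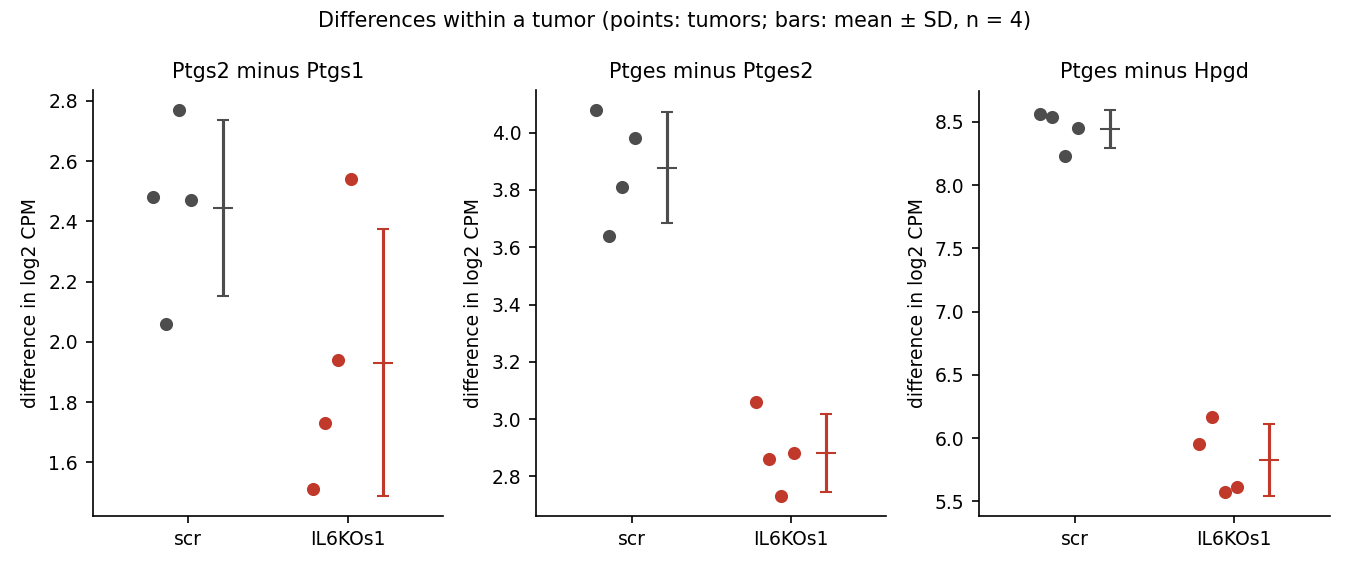
Difference in log2 CPM between pairs of members within each tumor (points), with the group mean ± SD (n = 4); the 3 vertical axes have different ranges. Ptges minus Hpgd separates the groups most widely (8.23 to 8.56 in scr, 5.57 to 6.17 in IL6KOs1), and Ptgs2 minus Ptgs1 does not separate them.

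Among the receptors, Ptger4 rose and Ptger1 and Ptger2 did not pass; Ptger3 was below the limit for testing. Ptger4, the EP4 receptor (Entrez 19219, chr15:5233399-5244187, minus strand), had 51, 45, 17 and 24 reads in scr tumors and 107, 66, 69 and 91 in IL-6 KO s1 tumors. Its log2 CPM values were 1.63, 1.49, 0.30 and 0.67 against 2.73, 2.26, 2.14 and 2.66. The controls split into a higher pair (replicates 1 and 2) and a lower pair, and all 4 knockout tumors were above both. The log2 fold change was 1.43 (SE 0.306, 95% confidence interval 0.76 to 2.09, adjusted p = 0.00352), or 2.69-fold, and ran from 1.18 to 1.63 when 1 tumor was left out. Its exons share 82 bases with Ttc33 and 1015 bases, or 15.3%, with the pseudogene Gm15937, both on the opposite strand.

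Ptger2, the EP2 receptor that shares the cyclic AMP route (Entrez 19217, chr14:44988111-45003820, plus strand), had 27, 12, 26 and 30 reads against 9, 23, 35 and 12. In log2 CPM it measured 0.72, -0.37, 0.90 and 0.99 in scr tumors and -0.77, 0.76, 1.17 and -0.21 in IL-6 KO s1 tumors. The knockout group held both the highest and the lowest tumor. Ptger2 had a log2 fold change of -0.32 (SE 0.463, 95% confidence interval -1.33 to 0.69, adjusted p = 0.609), and it was 0.02 without IL-6 KO s1 replicate 1. This interval was the widest among the tested members, and a change within it was not detectable at this depth and spread.

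Ptger1, the EP1 receptor (Entrez 19216, chr8:83666644-83672756, plus strand), measured 4.71, 4.59, 4.67 and 4.92 log2 CPM in scr tumors and 5.05, 4.94, 4.66 and 4.69 in IL-6 KO s1 tumors, with a log2 fold change of 0.11 (SE 0.12, adjusted p = 0.486). Replicates 1 and 2 of the knockout tumors lay above all controls, and replicates 3 and 4 lay within their range. The library kit does not mark strand, so the reads counted for Ptger1 may not all be its own, and both its level and its place as the receptor gene with the most reads are uncertain.

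Ptger3, the EP3 receptor (Entrez 19218, chr3:157566821-157644758, plus strand), had 6, 6, 2 and 6 reads in scr tumors and 14, 7, 11 and 6 in IL-6 KO s1 tumors. It did not reach 1 CPM in 4 tumors. Its log2 CPM values were -1.36, -1.32, -2.51 and -1.24 against -0.16, -0.89, -0.46 and -1.16, which did not overlap, although replicate 4 of either group had 6 reads (two-sided exact permutation p = 0.0286, n = 4 per group, the smallest these 8 tumors allow). With every gene tested, its adjusted p was 0.303 by limma. At this depth no change of Ptger3 was established.

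Genes whose level followed Ptgs2 or Ptges across the 8 tumors were found by the root mean square difference of log2 CPM after centring each gene on its own mean. The closest to Ptgs2 were Herc2 (0.150), Creb3l2 (0.150) and Atp2b4 (0.151). Those closest to Ptges were closer: Slc41a1 (0.0655), a magnesium transporter gene, Ankrd13b (0.0729) and Med13l (0.0935), a Mediator gene. The Ptges neighbours carried log2 fold changes of -0.95, -0.85 and -0.73, so that their likeness to Ptges holds mostly the difference between groups. The Ptgs2 neighbours carried -0.26, -0.38 and -0.35.

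Beyond the 10 members, 10 of 13 listed genes for the rest of the prostaglandin E2 pathway were tested. Of these, 2 rose, 1 fell and 7 did not pass, beside 39.8% of all tested genes that passed in either direction. The median log2 fold change of the list was -0.03, and its count is no result about these genes as a group. Ptges3, which encodes the third synthase, the co-chaperone p23, rose by 0.48 (adjusted p = 0.00162), from 6.19 to 6.54 log2 CPM in scr tumors to 6.75 to 6.90 in the knockouts. Ptgr1, a reductase acting on prostaglandin and leukotriene metabolites, rose by 1.11 (adjusted p = 0.000694) and was highest in IL-6 KO s1 replicate 2 at 7.25 log2 CPM. Pla2g4b, another cytosolic phospholipase A2, fell by 1.00 on the log2 scale (adjusted p = 0.00435). The prostaglandin transporters Slco2a1 (-0.24) and Abcc4 (0.06) did not pass.

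Of the enzymes and receptors of the other prostanoids, 7 of 11 were tested. The list had a median log2 fold change of 0.20. In it 3 rose and 1 fell, beside 39.8% of all tested genes that passed in either direction, and this count is no result about the list. The fall was the largest in size among all the pathway genes described here. Ptgir, the prostacyclin receptor (chr7:16906490-16910905, plus strand), measured 4.99, 4.48, 5.16 and 5.06 log2 CPM in scr tumors and 2.63, 2.03, 2.76 and 2.13 in IL-6 KO s1 tumors. Its log2 fold change was -2.54 (SE 0.201, adjusted p = 5.3e-06), which left 17.3% of the control level and a gap between the groups of well over 1 log2 unit. The 3 that rose were synthases: Hpgds, the hematopoietic prostaglandin D synthase (0.63, adjusted p = 0.00593), Tbxas1, thromboxane synthase (1.36, adjusted p = 0.0102), and Prxl2b, a prostaglandin F synthase (0.75, adjusted p = 0.0329). Ptgis, prostacyclin synthase, did not pass (-0.60, adjusted p = 0.34).

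Arachidonic acid also feeds the leukotrienes, and all 6 tested genes of the 10 listed for that branch passed: 5 rose and 1 fell, beside 39.8% of all tested genes that passed in either direction, with a median log2 fold change of 1.21. Alox5, 5-lipoxygenase, measured 0.82, 0.66, -1.13 and 0.19 log2 CPM in scr tumors and 1.77, 2.45, 2.26 and 1.88 in IL-6 KO s1 tumors (log2 fold change 1.96, adjusted p = 0.00235). Alox5ap, the protein that presents arachidonic acid to it, rose by 1.17 (adjusted p = 0.000199). The enzymes that follow it also rose, with 0.73 for Lta4h (adjusted p = 4.51e-05), which makes leukotriene B4, and 1.97 for Ltc4s (adjusted p = 7.34e-05), which makes leukotriene C4.
The cysteinyl leukotriene receptor gene Cysltr1 rose by 1.25 (adjusted p = 0.000501). Alox15, another lipoxygenase gene on the list, fell by 1.15 on the log2 scale (adjusted p = 0.0109), from 1.17 to 1.77 log2 CPM in controls to -0.46 to 0.70 in knockouts.

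**Figure D4:**
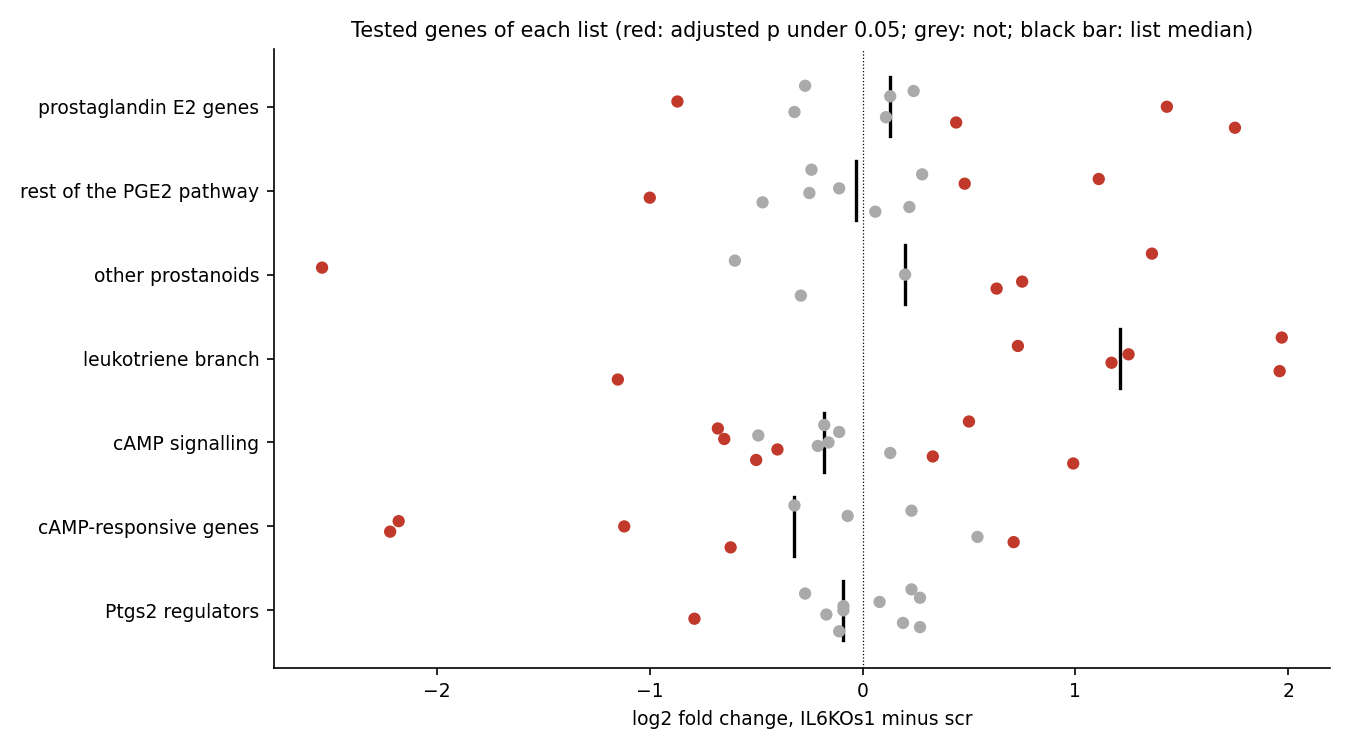
Log2 fold change (IL6KOs1 minus scr) of every tested gene of the prostaglandin E2 genes and of 6 related lists; red points passed an adjusted p of 0.05, grey did not, and the black bar is the median of the list. The leukotriene branch has its median at 1.21, the other lists between -0.32 and 0.20, and the leftmost point is Ptgir at -2.54.

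Cyclic AMP is the second messenger of Ptger2 and Ptger4, and 14 genes of its machinery were listed. Of the 13 tested, 3 rose and 4 fell, with a median log2 fold change of -0.18. That count is close to the 39.8% of all tested genes that passed and is no result about the list. Adcy3, an adenylyl cyclase, rose by 0.99 (adjusted p = 0.00361) and Prkar2b, a regulatory subunit of protein kinase A, by 0.50 (adjusted p = 0.00259). Prkacb, a catalytic subunit of that kinase, fell by 0.68 on the log2 scale (adjusted p = 0.000151), and Pde4b, a phosphodiesterase that breaks down cyclic AMP, fell by 0.65 (adjusted p = 0.00559). The adenylyl cyclases did not move together. Adcy6 had a log2 fold change of -0.50 (adjusted p = 0.00107 by limma) without overlap between the groups. Adcy7 had one of 0.33 (adjusted p = 0.00544), and Adcy9 did not pass (0.13). Adcy7 and Adcy9 are named after their values were seen.

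Of 9 genes that cyclic AMP is known to induce, all tested, 1 rose and 4 fell, with a median log2 fold change of -0.32, again beside a background of 39.8%. The 3 genes of the Nr4a family of orphan nuclear receptors fell together. Nr4a1 measured 8.98, 8.33, 9.04 and 8.86 log2 CPM in scr tumors and averaged 6.58 in IL-6 KO s1 tumors (log2 fold change -2.22, SE 0.193, adjusted p = 1e-05), with no overlap. Nr4a3 had a log2 fold change of -2.18 (adjusted p = 5.04e-05), and Nr4a2 one of -1.12 (adjusted p = 0.00333). Crem, a cyclic AMP response modulator and the fourth to fall, had -0.62 (adjusted p = 0.00409) and is named after its value was seen. Dusp1, a phosphatase that restrains MAP kinases, rose by 0.71 (adjusted p = 0.00216). Many other signals induce these genes, and the list does not measure cyclic AMP.

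Of 11 transcription factors and mRNA-binding proteins known to act on Ptgs2, Egr1 fell (log2 fold change -0.79, adjusted p = 0.00219), from 7.34 to 8.23 log2 CPM in scr tumors to 6.77 to 7.13 in knockouts. By limma 0 of the 11 rose at the adjusted threshold, 1 did at an unadjusted p under 0.05, and 0 did with precision weights. Of all tested genes 39.8% passed in either direction, 19.1% higher and 20.7% lower. The list had a median log2 fold change of -0.09, and its count is no result about these genes as a group. Of the factors whose motifs were searched above, Cebpb (-0.11), Cebpd (0.27), Nfkb1 (0.08), Rela (0.27) and Jun (-0.09) did not pass. Creb1, from the cyclic AMP list, which encodes a protein that binds the cAMP response element, had a log2 fold change of -0.40 (adjusted p = 0.00686) without overlap between the groups and is named after its value was seen.

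These were bulk tumors, in which fewer cells of a type and less RNA per cell cannot be told apart, and several marker lists moved with the groups. The marker counts here and in the next paragraph stand beside 39.8% of all tested genes that passed in either direction. All 6 macrophage markers passed as higher, Mrc1 only at an adjusted p of 0.0499 by limma and with overlapping groups, and 4 passed with no filter, 5 with precision weights, 5 without the variance trend and 5 to 6 with a tumor left out. They had a summed level of 415 to 586 CPM in scr tumors and 823 to 1272 in IL-6 KO s1 tumors. All 3 tested T cell markers of 5 listed rose (summed level 0.479 to 1.73 CPM in scr tumors and at least 5.85 in IL-6 KO s1 tumors). These 3 were below 1 CPM in every scr tumor and reached the limit for testing through the IL-6 KO s1 tumors alone. Their direction was thus fixed by that limit, and the count of T cell markers that rose is no result. The 5 tested mast cell markers of 6 rose (8.43 to 12.6 CPM against 21.8 in IL-6 KO s1 replicate 1 and 107 to 108 in the other 3), and Ms4a2 was at 0 reads in all 4 scr tumors. Of the 6 fibroblast markers 1 rose and 3 fell (6489 to 8100 against 4167 to 6713 CPM). Of 3 tested epithelial markers 2 rose, Krt18 (log2 fold change 3.20) and Cdh1 (1.46). The sum of all 6 epithelial markers (1079 to 1288 against 1325 to 1450 CPM) was mostly Krt20, which did not pass (adjusted p = 0.102 by limma).

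The remaining lists moved less. Among neutrophil markers 1 of 3 tested rose (10.3 to 21.0 against 15.8 to 28.5 CPM), and Ly6g was at 0 reads in 6 of the 8 tumors. By limma 0 of 4 platelet markers (26.4 to 42.3 against 27.9 to 56.2 CPM) and 0 of 5 endothelial markers (95.2 to 147 against 105 to 130 CPM) passed, and 0 of either did at an unadjusted p under 0.05 or with precision weights. The part of the macrophage, T cell, mast cell and fibroblast markers in the values of Hpgd, Ptger4, Ptges, Hpgds, Tbxas1 and the leukotriene genes was not tested. IL-6 KO s1 replicate 1 had the highest macrophage sum (1272 CPM), the highest T cell sum and, within its group, the lowest mast cell sum (21.8 CPM). Without this tumor the calls of Pla2g4a, Ptges, Hpgd and Ptger4 stood. Leaving it out did not remove the difference in markers between the groups. The remaining knockout tumors had macrophage sums of 823 to 911 CPM and mast cell sums of 107 to 108 CPM. In scr tumors these sums were 415 to 586 and 8.43 to 12.6 CPM.

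**Figure D5:**
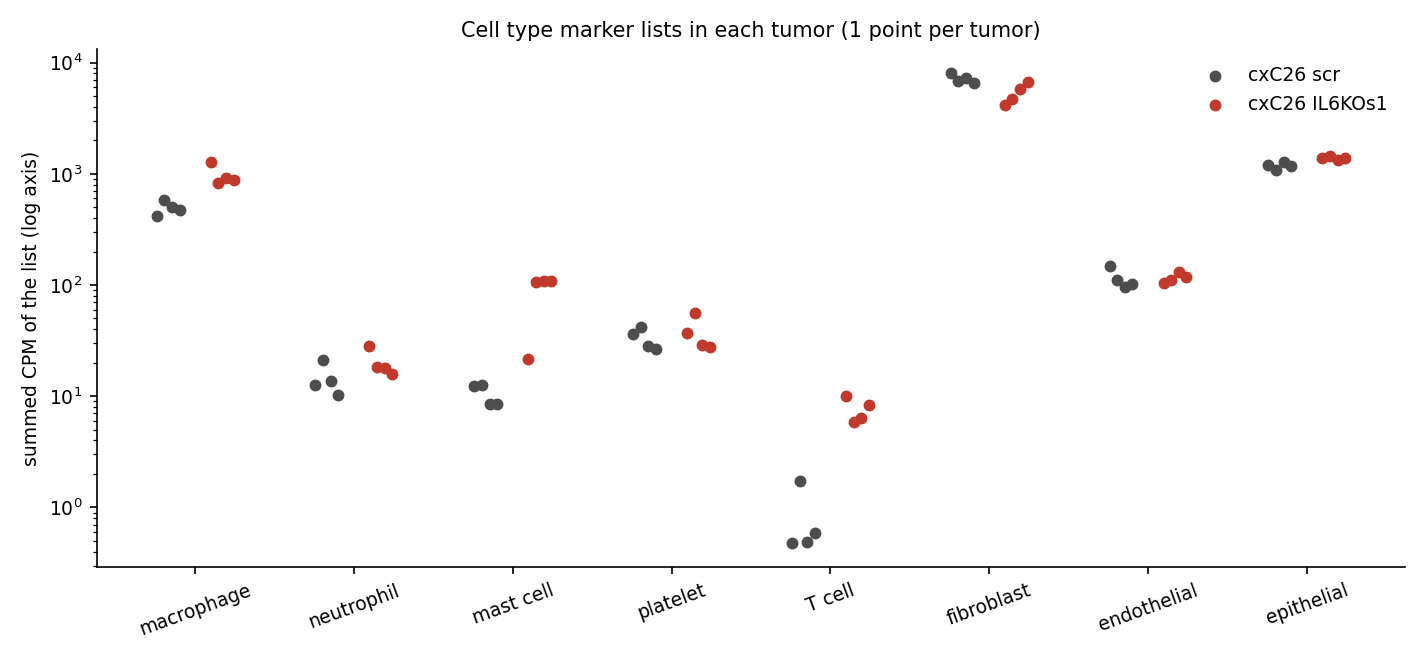
Summed CPM of 8 cell type marker lists in each tumor (1 point per tumor, log axis; grey scr, red IL6KOs1). Macrophage, mast cell and T cell sums lie higher in all 4 IL6KOs1 tumors, IL6KOs1 replicate 1 has the lowest mast cell sum of its group (21.8), and the fibroblast sums (6489 to 8100 against 4167 to 6713) overlap.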

How the data were processed

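Libraries were made from poly(A) RNA of 8 frozen tumors with a kit that does not mark strand. The authors demultiplexed with bcl2fastq 2.17 (per the submitters' processing notes), trimmed with Trimmomatic, aligned to mm10 with Hisat2, counted with featureCounts, and deposited the log2 CPM that limma-voom gave. Other tool versions, the annotation and the strand setting are not given in the sources used here. The deposited log2 values carry an offset of 0.5 reads, and reads were recovered from them, with 100% of values within 0.01 of a whole number. Totals of 14158989 to 17048062 reads per tumor set the precision of low genes.

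Groups and replicate numbers came from the sample titles. Genes that reached 1 CPM in 4 or more tumors (13262 of 27179) were fitted in R 4.3.3 with limma 3.58.1 (lmFit, eBayes with trend) without covariates and adjusted by Benjamini-Hochberg (threshold 0.05). For single genes an exact permutation test, two-sided, ran over all 70 splits (smallest p 0.0286). The fit was tested on simulated data. Nothing says whether tumors of a group shared a cell culture, so p-values only weigh the difference between the groups against the spread between these tumors.

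The members and all lists were chosen with earlier results of these data known. Named genes were all members, every passing gene of the prostanoid and leukotriene lists, and the 3 genes most like Ptgs2 and Ptges. In the cAMP and Ptgs2 regulator lists, up to 4 passing genes with the largest change were named. Genes tied for the last place in rounded size, as Prkar2b and Adcy6 were, are both given. Genes outside this rule are given for context or said to be chosen later. Gene positions are from RefSeq, and strands and exon lengths from GENCODE M21 on GRCm38. Promoter sequences are from RefSeq GRCm38.p6, which matched 9 of 10 members. The overlap of Ptger1 with other annotation is not reported here. Alternatives were no filter, a mean log2 CPM of 3 or more, median and quantile scaling, a replicate block, precision weights, log2(CPM + 1), no variance trend, a 2-fold threshold, the chromosome median and leaving out each tumor.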

Additional observations from a re-analysis of the deposited data

Results flagged for a closer look

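Of 66 groups of 4 tumors examined, 8 held 1 tumor far from the other 3 by Dixon's ratio, where chance at 1 in 20 gives 3.30. Among the members these were Ptges2 in scr replicate 4 (4.56 log2 CPM, the others 4.63) and Ptger3 in scr replicate 3 (-2.51, the others -1.36 to -1.24), where the tumors held only 2 and 6 reads. In the wider pathway, scr replicate 1 was low for Hpgds (3.09, the others 3.44 to 3.50) and high for Alox5ap (3.76, the others 3.19 to 3.25), and IL-6 KO s1 replicate 3 was low for Alox15 (-0.46, the others 0.53 to 0.70). IL-6 KO s1 replicate 1 was low for Prkacb (7.18, the others 7.48 to 7.49) and high for Pde4b (4.19, the others 3.62 to 3.67). Il6 itself was highest among the knockout tumors in replicate 3 (2.46, the others 1.99 to 2.04). All are log2 CPM values, and the cause was not tested.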

How the results depend on the processing

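Of 442 values under alternatives, 152 were differences of a tested member. None of these lost a call where the gene was still tested, 1 gained a call, and 2 that never passed changed sign, Ptger2 to 0.02 without IL-6 KO s1 replicate 1 and Ptgs2 to 0.07 relative to its chromosome's median. Counts of calls fell within 1.5 times the main count in several settings, for macrophage markers to 4 or 5, other prostanoids to 3 and fibroblast markers to 3; 17 values moved further. The gain was Ptgs1 without scr replicate 1, within a range of 0.18 to 0.34 over all tumors left out; that of Ptger2 was -0.63 to 0.02. Pla2g4a moved to 0.78 relative to its chromosome's median. When a mean log2 CPM of 3 was required, Hpgd, Ptger2 and Ptger4 were no longer tested and 1 member rose, and calls came to 2 for other prostanoids, 3 for the leukotriene branch and 0 for neutrophil, mast cell, T cell and epithelial markers, since fewer genes were tested. A 2-fold threshold left 0 members lower. T cell calls were 5 with no filter, and 1 platelet marker passed without the variance trend; the cause of the latter was not tested. Ptgs2 regulator calls were 2 under quantile normalization and under the replicate block and 1 to 2 with a tumor left out; endothelial calls were 0 to 1. Calls over all genes ran from 2023 to 2540 higher and 2193 to 2674 lower with a tumor left out. Tumors that share a replicate number came from different mice and did not deviate together (correlations of deviations -0.0593, 0.0570, 0.0170 and -0.0587). With the number as a block 3 members rose and 1 fell, with adjusted p = 0.0148 for Pla2g4a, 0.000159 for Ptges, 0.00136 for Hpgd and 0.00403 for Ptger4 by limma. Hpgd, Ptger2, Ptger3 and Ptger4 rest on few reads, and depth limits what they can show.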
